A study of Rattus norvegicus with 9 samples.

Results

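Rab genes encode small GTPases of the Ras superfamily, and 52 of them were read across the Control, MS and MS+EA groups. They were chosen from the deposited count table as mRNA-typed genes named Rab and a number, with at most 1 following letter and 1 further digit, whose counts over the 9 rats summed to at least 90. Of the 37209 genes in the table, 23422 were typed as mRNA, 56 mRNA genes bore such a name and 52 met the minimum. The members nearest above it were Rab44 with 111 counts, Rab5a with 120 and Rab20 with 133, whereas Rab38 with 65, Rab25 with 11, Rab19 with 9 and Rab17 with 2 fell below it. All 52 members passed the filter on low counts and were tested. The name rule took no account of the measured differences between groups, and it does not reach Rab genes with longer names such as Rab5al1.

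Rab proteins switch between a GTP-bound active form and a GDP-bound inactive form. Guanine nucleotide exchange factors (GEFs) load GTP, GTPase-activating proteins (GAPs) speed its hydrolysis, and the active form recruits effectors that move, tether and fuse vesicles. Each Rab marks a particular set of membranes, and in neurons the family is known for synaptic vesicle release, receptor recycling and transport along axons and dendrites.

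The animals were male Wistar rats of 14 weeks, and total RNA of the frontal cortex (the prefrontal cortex in the study) was depleted of rRNA and sequenced. Control rats were left with their mothers. MS rats were kept apart from the mother for 4 h per day from postnatal day (PND) 1 to 21, and MS+EA rats underwent the same separation followed by electroacupuncture (EA) at the acupoints Baihui and Yintang every other day from PND 61 to 81. Anaesthesia was given with EA, and the Control and MS rats received anaesthesia alone; no sham EA group was sequenced. Each group held 3 rats, Control replicates 1, 2 and 6, MS replicates 3, 4 and 6, and MS+EA replicates 3, 10 and 16, and the litters they came from are not given in the sources used here. Where 3 values are given in a row, they follow those orders.

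Totals ranged from 16153292 to 19007907 counts in Control, from 16106381 to 17243320 in MS and from 12479905 to 14913736 in MS+EA rats, so every MS+EA library was shallower than every other. Among the marker lists of cell types, the summed level of 4 excitatory neuron markers was 3265 to 3409 CPM (the count of a gene scaled to its rat's TMM-normalized library size) in MS+EA rats, 3857 to 3908 in MS and 3776 to 4411 in Control rats. In MS+EA against Control rats, 2 of those 4 (Slc17a7 and Camk2a) and 1 of 6 general neuron markers (Tubb3) were lower at an adjusted p under 0.05. The sum of 4 red blood cell markers was 93.7 to 198 CPM in Control, 221 to 304 in MS and 207 to 303 in MS+EA rats. The sum of 6 general neuron markers was 4490 to 4617 CPM in Control, 4776 to 5253 in MS and 4015 to 5187 in MS+EA rats, and that of 4 endothelial markers was 83.9 to 100.1, 104.9 to 116 and 86.1 to 108.6 CPM. All MS rats were thus above all Control rats in the sums of neuron, endothelial and red blood cell markers. The fitted value was higher in MS rats for all 4 endothelial and all 4 red blood cell markers. Of the 6 general neuron markers only 2 were higher, with a median log2 fold change of −0.04 and the highest, Snap25, at 0.26. The other 7 lists overlapped between MS and Control rats. These shifts moved with the group differences below, and their part in them was not tested. In bulk tissue, fewer cells of a type and less RNA per cell cannot be told apart.

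Rab transcripts took 0.585% to 0.602% of the mRNA counts in Control rats, 0.606% to 0.636% in MS rats and 0.591% to 0.638% in MS+EA rats. All MS rats lay above all Control rats, whereas the MS+EA rats spanned both ranges. The mean share was 0.595% ± 0.00890 in Control, 0.622% ± 0.0148 in MS and 0.621% ± 0.0260 in MS+EA rats (SD, n = 3). By exact two-sided permutation tests, p was 0.1 for MS against Control, 0.9 for MS+EA against MS and 0.3 for MS+EA against Control (0.3, 0.9 and 0.45 after Benjamini-Hochberg adjustment over these 3), and 0.1 is the smallest value that 3 rats against 3 allow. Rab6b alone, a neuron-enriched Golgi Rab, held 24.2% to 27.9% of the Rab counts.

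The 3 members that passed an adjusted p of 0.05 between MS+EA and Control rats were Rab27b, Rab14 and Rab40c, and Rab11a and Rab11b are close relatives whose fitted values had opposite signs there without passing. The 250 bases before the annotated start of these 5 genes are shown as those of the 3 genes that passed and of the paralog pair whose ratio is described below. They are from RefSeq on GRCr8, on the minus strand and printed 5′ to 3′, and capitals mark the GC box GGGCGG on either strand.
Rab27b (chr18:65938584-65938833): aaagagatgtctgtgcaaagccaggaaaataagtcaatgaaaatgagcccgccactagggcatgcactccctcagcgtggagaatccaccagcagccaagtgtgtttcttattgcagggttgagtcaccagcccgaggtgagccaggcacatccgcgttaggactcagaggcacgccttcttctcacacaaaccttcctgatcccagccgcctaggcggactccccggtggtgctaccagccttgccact
Rab14 (chr3:38911685-38911934): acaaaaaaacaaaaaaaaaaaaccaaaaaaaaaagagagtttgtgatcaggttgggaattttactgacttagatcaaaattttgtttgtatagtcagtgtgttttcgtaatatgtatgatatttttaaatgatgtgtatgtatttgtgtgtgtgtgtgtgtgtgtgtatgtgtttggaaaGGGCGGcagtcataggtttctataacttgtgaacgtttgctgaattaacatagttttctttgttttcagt
Rab40c (chr10:15440660-15440909): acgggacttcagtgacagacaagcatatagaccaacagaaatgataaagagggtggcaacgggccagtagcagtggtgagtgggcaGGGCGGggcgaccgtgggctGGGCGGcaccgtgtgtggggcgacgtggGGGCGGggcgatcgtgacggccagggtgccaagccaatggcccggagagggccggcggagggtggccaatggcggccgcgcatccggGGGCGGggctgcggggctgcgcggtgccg
Rab11a (chr8:74141685-74141934): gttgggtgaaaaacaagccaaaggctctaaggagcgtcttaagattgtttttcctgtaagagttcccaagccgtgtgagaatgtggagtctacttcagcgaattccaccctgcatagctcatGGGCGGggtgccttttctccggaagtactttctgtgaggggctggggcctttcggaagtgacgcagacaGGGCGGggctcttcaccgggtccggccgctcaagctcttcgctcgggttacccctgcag
Rab11b (chr7:15236755-15237004): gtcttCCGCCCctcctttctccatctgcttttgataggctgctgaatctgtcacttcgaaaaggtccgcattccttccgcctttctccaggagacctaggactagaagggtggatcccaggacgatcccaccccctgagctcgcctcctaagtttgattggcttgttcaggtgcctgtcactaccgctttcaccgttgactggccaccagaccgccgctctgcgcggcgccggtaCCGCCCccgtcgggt
The Rab27b window held 0 GC boxes, that of Rab14 held 1, those of Rab11a and Rab11b 2 each and that of Rab40c 4. Rab14 had the lowest GC content of all members with a window, at 30.4%, and Rab40c reached 70.4%. The Rab14 and Rab11a windows end in bases that resemble a splice acceptor, so they may lie in an intron before a later exon, and their GC values and motifs are those of the annotated window, not of a known promoter. A window was found for 43 of the 52 members (under the current symbol Rab29 for the member listed as Rab7l1), with a median GC content of 63.2% against 60.0% over the 10573 tested genes that have one. The GC box was in 35 of 43 windows (81.4%), against 57.0% of the windows of tested genes and 32.4% of all 27457. The CCAAT box (CCAAT) was in 14 (32.6% against 34.7% of tested genes), the cAMP response element half-site TGACG in 13 (30.2% against 27.2%), the full element TGACGTCA in 0 (2.83%), the E-box CACGTG in 3 (6.98% against 7.88%), the D-box TTATGNAA in 1 (2.33% against 1.71%) and TATAAA in 0 (6.69%). Each motif was read on both strands, the half-site also matches inside the full element, and whether the annotated start is the one used in this tissue was not tested.

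No member was called as changed by MS. At an adjusted p under 0.05 (edgeR quasi-likelihood F test, Benjamini-Hochberg over 16837 genes) and a fold change above 1.5, 0 of 52 members passed between MS and Control rats, where 0.0238% of all genes tested did. Dropping the fold threshold left 0 members, with 0.0178% of all genes higher and 0.00594% lower. At an unadjusted p under 0.05, 7 of 52 (13.5%) passed against 10.6% of all genes, and all 7 were higher in MS rats (7.06% of all genes were higher and 3.55% lower at that p): Rab1b, Rab27b, Rab6a, Rab1a, Rab2a, Rab11a and Rab14. This count was 3 without MS replicate 6 and 10 without MS replicate 3, the extremes when a rat was left out. By DESeq2, 1 member (Rab1b) was called. The 2 groups did not overlap for 13 members (25.0%), against 17.6% of all genes. The fitted value was higher in MS rats for 33 of 52 members (63.5%), against 49.7% of all genes, and the median log2 fold change of the members was 0.09, against −0.0014 over all genes.

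Between MS+EA and MS rats, 0 of 52 members were called, where 0.0178% of all genes were, and DESeq2 also called 0. At an unadjusted p under 0.05, 6 members (11.5%) passed against 12.4% of all genes, of which Rab30 was higher in MS+EA rats and Rab15, Rab1b, Rab11b, Rab40c and Rab35 were lower (6.01% of all genes were higher and 6.42% lower). The count was 3 without MS replicate 4 and 9 without MS+EA replicate 3, the extremes when a rat was left out. The groups did not overlap for 10 members (19.2%), against 17.9% of all genes. The fitted value was higher in MS+EA rats for 20 of 52 (38.5%), against 50.1% of all genes, and the members' median log2 fold change was −0.03, against 0.00059 over all genes.

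Between MS+EA and Control rats, 0 members passed both thresholds, where 1.37% of all genes did, and DESeq2 also called 0. Without the fold threshold, 3 of 52 members (5.77%) passed the adjusted p, against 5.40% of all genes: Rab27b and Rab14 were upregulated (3.21% of all genes were higher) and Rab40c was downregulated (2.19% were lower). At an unadjusted p under 0.05, 19 members (36.5%) passed against 22.5% of all genes, 11 of them higher and 8 lower in MS+EA rats (21.2% and 15.4% of the members, against 11.9% and 10.6% of all genes). The groups did not overlap for 20 members (38.5%), against 25.9% of all genes, and the fitted value was higher in MS+EA rats for 30 of 52 (57.7%), against 50.9%. The members' median log2 fold change was 0.03, against 0.0055 over all genes. This comparison joins the separation and the EA treatment, and it shares its Control rats with the first comparison and its MS+EA rats with the second.

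**Figure D1:**
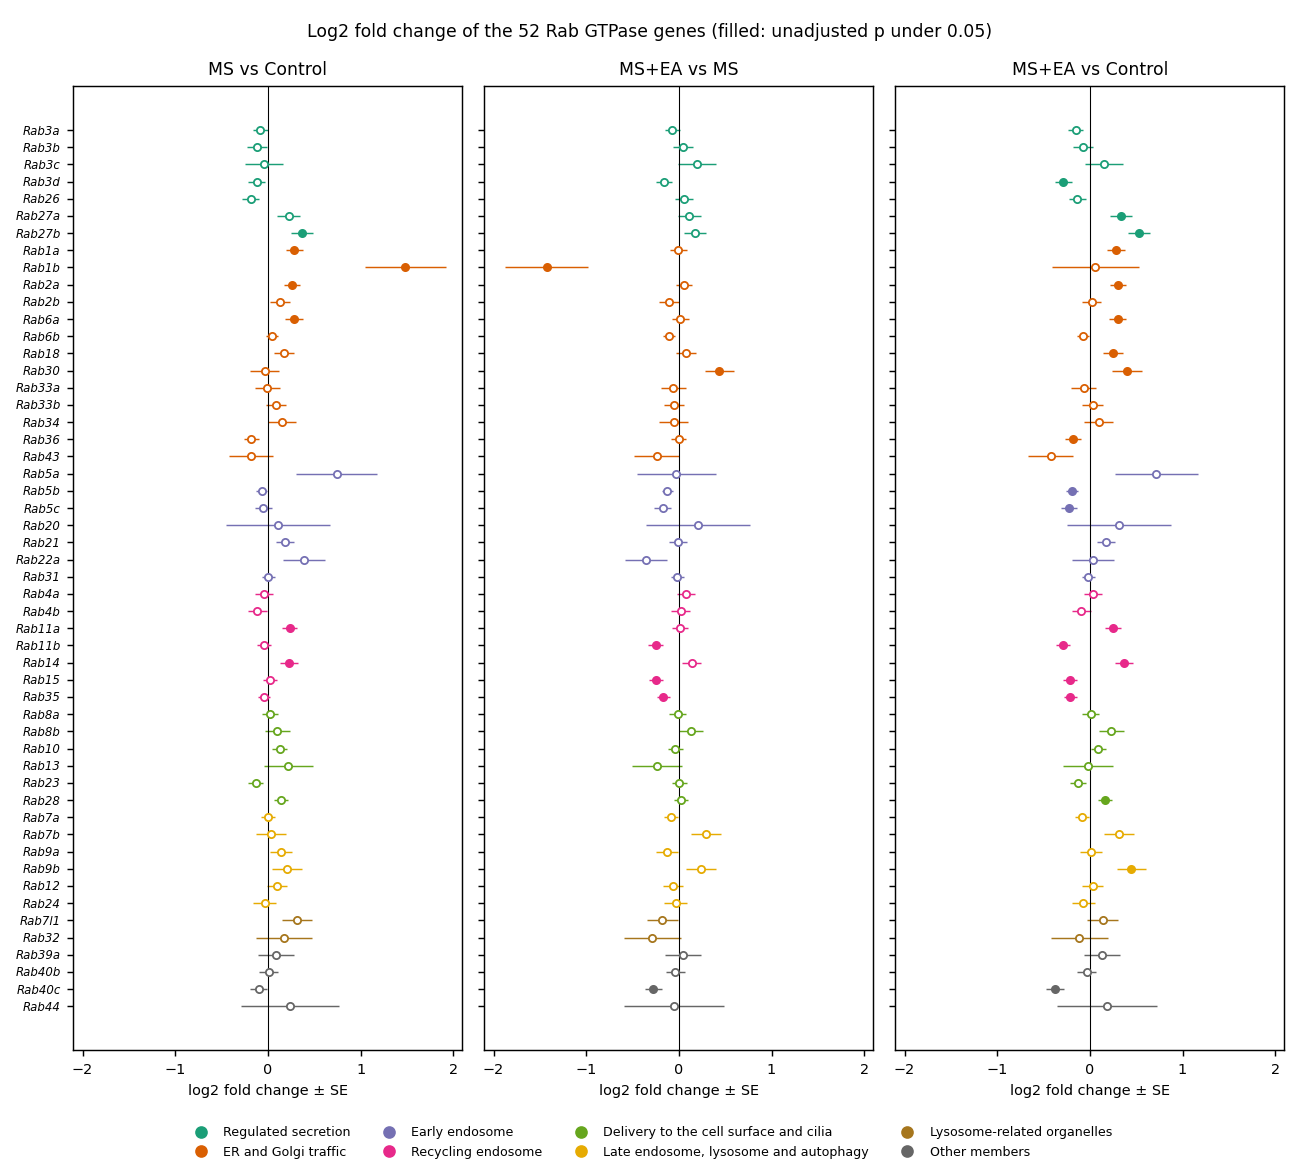
Log2 fold change (x axis) of each of the 52 Rab genes (y axis), grouped and coloured by role, for MS vs Control, MS+EA vs MS and MS+EA vs Control; bars are ± 1 SE of the fit and filled points have an unadjusted p under 0.05. Most points lie within 0.5 of 0, and Rab1b stands apart in the first and second panels, at 1.48 and −1.43.

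Among the 7 Rabs of regulated secretion, Rab27b was higher in MS+EA than in Control rats at the adjusted threshold, as were 3.21% of all genes. Rab27a (higher) and Rab3d (lower) had an unadjusted p under 0.05 without passing it. At that unadjusted p, 11.9% of all genes were higher and 10.6% lower. Rab27b acts in the docking and release of secretory granules and exosomes. Its level was 89.9, 102 and 96.2 CPM in Control, 112, 126 and 132 in MS and 109.8, 159.7 and 147 in MS+EA rats. All MS and MS+EA rats were above all Control rats, and MS+EA replicate 3 lay below every MS rat. Rab27b was upregulated in MS+EA against Control rats with a log2 fold change of 0.53 ± 0.12 (SE) and an adjusted p of 0.0261, and the values were 0.36 ± 0.12 with an adjusted p of 0.275 for MS against Control and 0.17 ± 0.12 with 0.577 for MS+EA against MS. The adjusted p for MS+EA against Control was 0.118 without Control replicate 1, 0.0696 without Control replicate 6, 0.0765 without MS+EA replicate 10 and 0.0795 without MS+EA replicate 16.

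Rab27a, which shares effectors with Rab27b, was at 10.4, 11.8 and 9.89 CPM in Control, 11.8, 13.4 and 12.4 in MS and 13.9, 13.4 and 13.4 in MS+EA rats. The MS+EA rats were above all Control rats, with a log2 fold change of 0.34 ± 0.12 and an adjusted p of 0.12. Rab3d, a secretory granule Rab, ran 31.6, 30.7 and 27.5 CPM in Control, 27.1, 27.2 and 28.1 in MS and 24.7, 23.8 and 25.1 in MS+EA rats. The MS+EA rats lay below every rat of the other 2 groups, with a log2 fold change against Control of −0.29 ± 0.09 and an adjusted p of 0.0785. Rab3a, the main synaptic vesicle Rab, was at 371, 347 and 329.9 CPM in Control, 321, 330.0 and 339.8 in MS and 284, 309.9 and 349 in MS+EA rats. Its groups overlapped in every comparison, and its log2 fold change in MS+EA against Control rats was −0.15 ± 0.08 with an adjusted p of 0.277. Rab3c varied more among rats than between groups, at 67.4, 94.9 and 77.4 CPM in Control, 61.3, 88.8 and 82.7 in MS and 58.3, 107 and 101 in MS+EA rats. Rab3b and Rab26 had an unadjusted p above 0.05 in every comparison, with log2 fold changes from −0.19 to 0.05.

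Of the 7 recycling endosome Rabs, Rab14 and Rab11a were higher and Rab11b, Rab15 and Rab35 lower in MS+EA than in Control rats at an unadjusted p under 0.05, where 11.9% of all genes were higher and 10.6% lower, and only Rab14 passed the adjusted threshold. Rab14 moves cargo between the Golgi and endosomes. It was at 243, 253 and 235 CPM in Control, 255, 281 and 322 in MS and 271, 339 and 332 in MS+EA rats. Every MS and MS+EA rat was above every Control rat, and the MS and MS+EA rats overlapped. Its log2 fold change was 0.37 ± 0.10 with an adjusted p of 0.0488 in MS+EA against Control rats, and 0.23 ± 0.10 with 0.43 in MS against Control rats. Rab14 passed narrowly: the adjusted p was 0.0513 with DESeq2's size factors and 0.161, 0.0778 and 0.135 without Control replicates 1, 2 and 6. It was 0.0507 without MS replicate 4, and 0.127 and 0.143 without MS+EA replicates 10 and 16.

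Rab11a and Rab11b return receptors from the recycling endosome to the cell surface. Rab11a was at 107, 111 and 105 CPM in Control, 114, 132 and 134 in MS and 113, 133 and 137 in MS+EA rats. All rats of both separated groups were above the Control rats, with log2 fold changes of 0.23 ± 0.09 for MS and 0.25 ± 0.09 for MS+EA against Control (adjusted p = 0.334 and 0.109). Rab11b was at 228, 194 and 209.9 CPM in Control, 220.0, 208 and 186 in MS and 178, 165 and 174 in MS+EA rats. The MS+EA rats were below all others, with log2 fold changes of −0.29 ± 0.08 against Control and −0.25 ± 0.08 against MS (adjusted p = 0.0525 and 0.263). Rab15, an endosomal Rab of neurons, was at 234, 218 and 237 CPM in Control, 241, 222 and 239.5 in MS and 212, 203 and 178 in MS+EA rats. Every MS+EA rat was below every other rat, and the log2 fold change was −0.22 ± 0.08 against Control (adjusted p = 0.106) and −0.25 ± 0.08 against MS (adjusted p = 0.253).

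Rab35, which drives fast recycling, was at 73.3, 74 and 78.1 CPM in Control, 71, 70.9 and 76.8 in MS and 62.2, 64.4 and 68.2 in MS+EA rats, and the MS+EA rats were again below the others (log2 fold change −0.21 ± 0.07 against Control, adjusted p = 0.0974). Rab4a and Rab4b had log2 fold changes from −0.12 to 0.08, with an unadjusted p above 0.05 in each comparison. The excitatory neuron markers Slc17a7 and Camk2a were lower in MS+EA than in Control rats by log2 fold changes of −0.30 and −0.36, of the same sign as Rab11b, Rab15 and Rab35, and the part of cell makeup in these values was not tested.

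**Figure D2:**
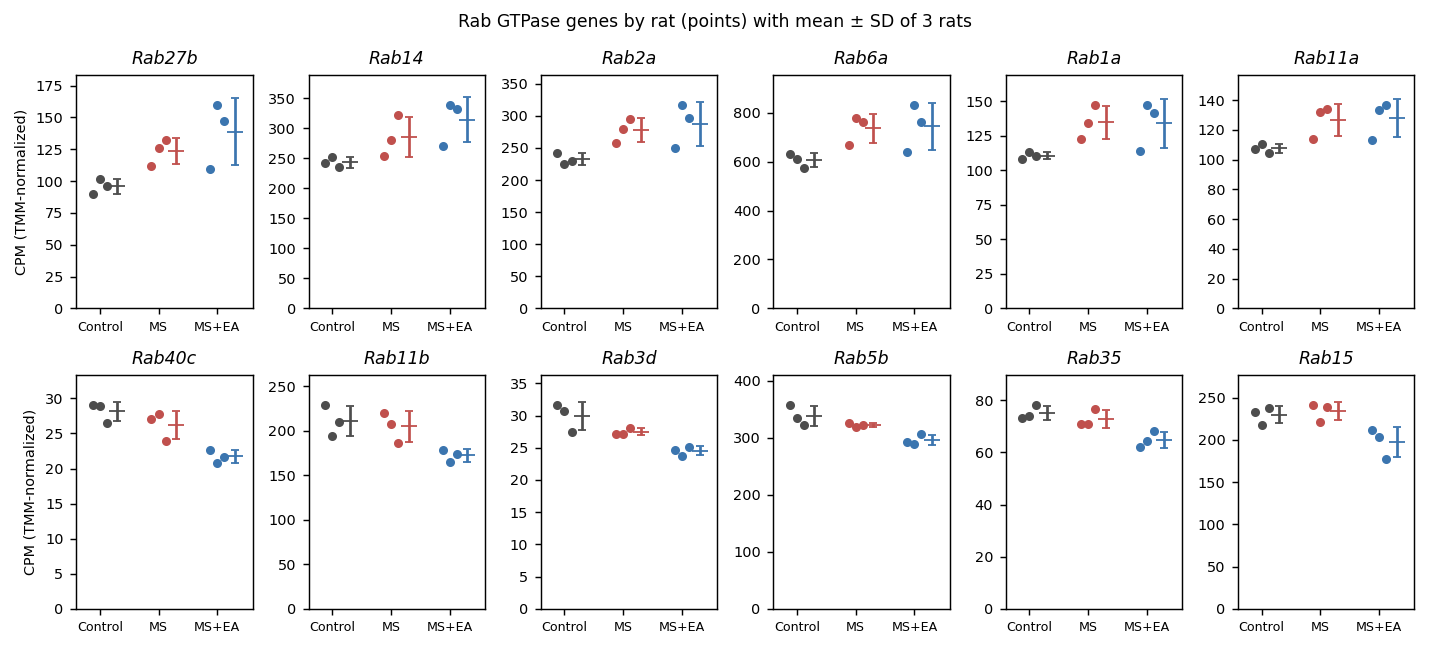
Level in CPM (y axis, starting at 0) of the 6 higher and the 6 lower Rab genes with the smallest p in MS+EA vs Control, by group (x axis); points are rats and the bar beside them is the mean ± SD of 3 rats. In the upper row MS+EA replicate 3 is the lowest of its group in each panel, whereas in the lower row the MS+EA rats are below all Control rats.

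The 13 Rabs of ER and Golgi traffic held 5 members that were higher and 1 that was lower in MS+EA than in Control rats at an unadjusted p under 0.05 (11.9% of all genes were higher and 10.6% lower), and none passed the adjusted threshold. Rab1a and Rab2a act between the ER and the Golgi. Rab2a was at 242, 225 and 230.3 CPM in Control, 258, 280.1 and 295 in MS and 250.1, 317 and 296 in MS+EA rats. Rab1a was at 108, 113 and 110.3 CPM in Control, 123, 134 and 147 in MS and 114, 147 and 141 in MS+EA rats. For both genes all MS and MS+EA rats were above all Control rats. Rab2a had log2 fold changes against Control of 0.26 ± 0.09 in MS and 0.31 ± 0.09 in MS+EA rats (adjusted p = 0.284 and 0.0576), and Rab1a of 0.29 ± 0.10 and 0.28 ± 0.10 (adjusted p = 0.283 and 0.104).

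Rab6a and Rab6b direct traffic at and out of the Golgi. Rab6a was at 631, 609 and 575 CPM in Control, 669, 776 and 762 in MS and 641, 831 and 762 in MS+EA rats. The separated rats were all above the Control rats, with log2 fold changes against Control of 0.28 ± 0.09 in MS and 0.30 ± 0.09 in MS+EA rats (adjusted p = 0.28 and 0.0799). Rab6b was at 1606, 1537 and 1608 CPM in Control, 1637, 1553 and 1694 in MS and 1459, 1572 and 1495 in MS+EA rats. Its log2 fold changes were 0.04 ± 0.06 in MS and −0.07 ± 0.06 in MS+EA against Control rats, within the spread of the rats. Rab18, known from the ER and lipid droplets, was at 56.4, 61.1 and 53.2 CPM in Control, 57.1, 65 and 70.5 in MS and 61.1, 79.4 and 62.6 in MS+EA rats, and its log2 fold change in MS+EA against Control rats was 0.25 ± 0.11 (adjusted p = 0.199).

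Rab30, a Golgi Rab, was at 11, 11.6 and 11.4 CPM in Control, 14.1, 8.88 and 10.2 in MS and 15.6, 14.1 and 15.3 in MS+EA rats. The MS rats spread around the Control rats, and the MS+EA rats were above all others, the lowest of them by little over MS replicate 3 (log2 fold change 0.44 ± 0.16 against MS and 0.40 ± 0.16 against Control, adjusted p = 0.315 and 0.155). Rab36 was at 42, 40.8 and 45.8 CPM in Control, 39.5, 36.1 and 37.8 in MS and 39.1, 38.9 and 35.2 in MS+EA rats, with a log2 fold change in MS+EA against Control rats of −0.18 ± 0.08 (adjusted p = 0.218). The other members of the group apart from Rab1b (Rab2b, Rab33a, Rab33b, Rab34 and Rab43) had an unadjusted p above 0.05 in every comparison. Of these, Rab43 was at 4.28, 4.76 and 5.1 CPM in Control, 5.42, 4.25 and 2.77 in MS and 3.68, 3.28 and 3.58 in MS+EA rats, and MS replicate 6 lay below all others.

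Rab1b, a close relative of Rab1a, had the largest fold change of any member between MS and Control rats, and it rested on few counts. The 3 Control rats had 70, 37 and 26 counts, the MS rats 202, 81 and 77 and the MS+EA rats 45, 18 and 47. All MS rats were above all rats of the other 2 groups, and within the MS group the highest CPM was 2.54 times the lowest. The log2 fold change was 1.48 ± 0.44 in MS against Control and −1.43 ± 0.45 in MS+EA against MS rats (adjusted p = 0.222 and 0.26). Without MS replicate 3 these became 0.92 and −0.86 (adjusted p = 0.405 and 0.465). When the minimum was lowered to 1 count over the rats, the adjusted p was 0.00761 for MS against Control and 0.0266 for MS+EA against MS, and DESeq2 gave 0.0474 for the first. How reads that match several Rab1 copies were counted is not given in the sources used here, so its level is uncertain.

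Among the 7 early endosome Rabs, Rab5b and Rab5c, which control fusion of incoming vesicles with early endosomes, were lower in MS+EA than in Control rats at an unadjusted p under 0.05, as were 10.6% of all genes. Rab5b was at 357, 335 and 322 CPM in Control, 326, 319.5 and 323 in MS and 292, 289 and 307 in MS+EA rats. All MS+EA rats were below all other rats, with a log2 fold change against Control of −0.19 ± 0.06 (adjusted p = 0.0868). Rab5c was at 129, 117 and 111 CPM in Control, 109.8, 123 and 112 in MS and 99.1, 92.7 and 113 in MS+EA rats. Here MS+EA replicate 16 lay above 1 Control rat, and the log2 fold change was −0.23 ± 0.09 (adjusted p = 0.15). Rab21, Rab22a and Rab31 had an unadjusted p above 0.05 in every comparison.

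Rab5a, the best-known early endosome Rab, was listed with 8 to 13 counts in Control, 12 to 21 in MS and 6 to 18 in MS+EA rats. Its near-copy Rab5al1, which the name rule does not reach, had 763 to 1039 counts per rat, so that Rab5a held 0.736% to 2.30% of the counts of the pair. The division of reads between them is uncertain, and no level of Rab5a is read from it. Rab20, a Rab of phagosomes and endosomes, was at 1.28, 0.305 and 0.933 CPM in Control, 0.525, 1.69 and 0.541 in MS and 1.18, 0.804 and 1.19 in MS+EA rats. Rab44, a large Rab of blood cells, was at 0.696, 0.732 and 0.684 CPM in Control, 0.525, 1.56 and 0.421 in MS and 0.971, 1.01 and 0.397 in MS+EA rats. The groups of both genes overlapped in every comparison. Rab32, a Rab of melanosomes and other lysosome-related organelles, was at 1.82, 2.13 and 1.8 CPM in Control, 2.22, 1.69 and 2.59 in MS and 2.29, 1.21 and 1.83 in MS+EA rats, with log2 fold changes whose SE was 0.30 to 0.31.

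Of the 6 Rabs of delivery to the cell surface and cilia, only Rab28 had an unadjusted p under 0.05. This was in MS+EA against Control rats, where 22.5% of all genes had such a p. Rab28, known from cilia and photoreceptors, was at 66.6, 56.7 and 59 CPM in Control, 67.2, 66.9 and 67.6 in MS and 65.8, 67.9 and 71 in MS+EA rats, with a log2 fold change in MS+EA against Control rats of 0.17 ± 0.08 (adjusted p = 0.217). Rab8a, Rab8b, Rab10 and Rab13, which carry cargo from the Golgi to the plasma membrane, and Rab23, a Rab of hedgehog signalling, had log2 fold changes from −0.24 to 0.23 over the 3 comparisons.

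Rab9b was the only one of the 6 late endosome, lysosome and autophagy Rabs with an unadjusted p under 0.05. It had this in MS+EA against Control rats, where 22.5% of all genes did. Rab9 proteins return receptors from late endosomes to the Golgi. Rab9b was at 49.5, 57.9 and 50.3 CPM in Control, 54.3, 60.5 and 67.1 in MS and 51.7, 72.8 and 90.6 in MS+EA rats. The MS+EA rats ranged from within the Control rats to well above them, and the log2 fold change against Control was 0.45 ± 0.16 (adjusted p = 0.117). Without MS+EA replicate 3 it was 0.64 with an adjusted p of 0.0137. Rab7a, which governs fusion of late endosomes with lysosomes, was at 339, 313 and 286 CPM in Control, 300.3, 313 and 324 in MS and 278, 300.0 and 306 in MS+EA rats, and its groups overlapped in every comparison. Rab7b, Rab9a, Rab12 and Rab24 had an unadjusted p above 0.05 in each.

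Rab40c, whose protein carries a SOCS box and joins cullin ubiquitin ligases, was the member that was downregulated past the adjusted threshold. It was at 29, 28.9 and 26.5 CPM in Control, 27.1, 27.7 and 24 in MS and 22.7, 20.8 and 21.7 in MS+EA rats. The MS+EA rats lay below all rats of the other 2 groups, and the MS and Control rats overlapped. Its log2 fold change was −0.37 ± 0.10 against Control (adjusted p = 0.0418) and −0.27 ± 0.10 against MS (adjusted p = 0.3). Of 15 alternatives, 5 kept the adjusted p under 0.05. It was 0.155, 0.105 and 0.0812 without Control replicates 1, 2 and 6, 0.0523 and 0.0556 without MS replicates 3 and 4, and 0.055, 0.107 and 0.101 without MS+EA replicates 3, 10 and 16. It was also 0.0657 with total counts as library sizes and 0.061 with the 6 rats compared alone. Rab40b had log2 fold changes from −0.04 to 0.01. Rab39a and Rab7l1, the older name of Rab29, a partner of the Parkinson's kinase Lrrk2, had an unadjusted p above 0.05 in every comparison.

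**Figure D3:**
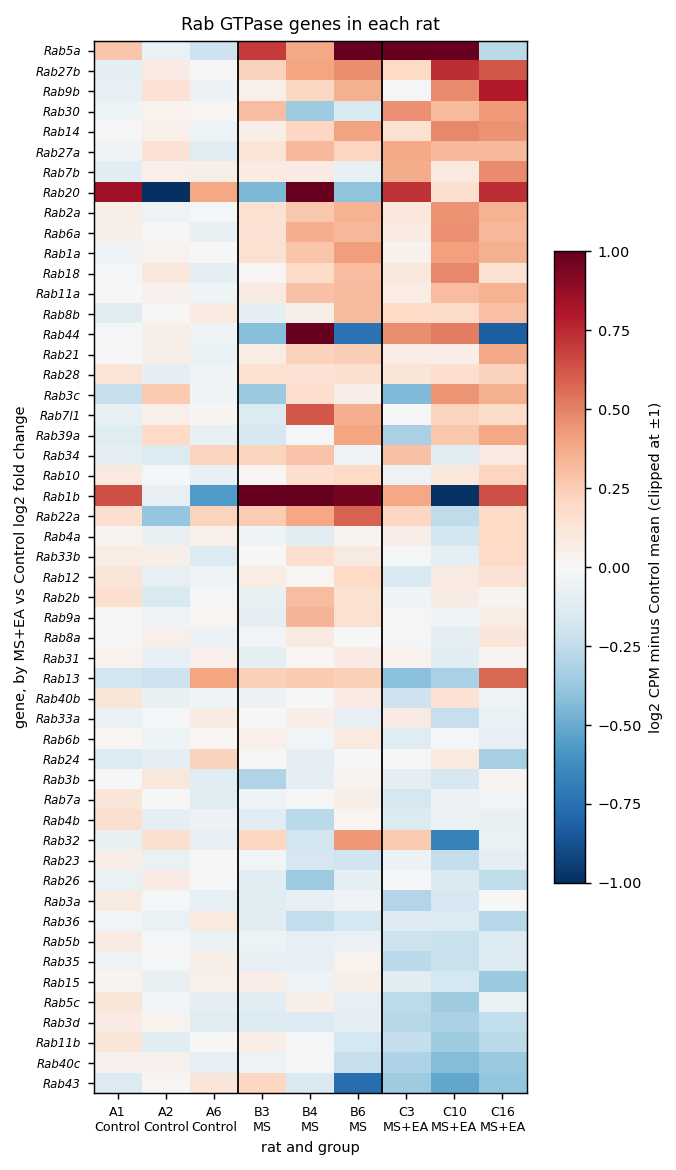
Log2 CPM of the 52 Rab genes (rows, ordered by the MS+EA vs Control log2 fold change) minus their Control mean, in each rat (columns; A, B and C mark Control, MS and MS+EA with the replicate number); the colour scale is clipped at ±1. Rab27b, Rab14 and Rab2a are above the Control mean in all 6 separated rats, Rab40c and Rab11b are lowest in the MS+EA rats, and Rab5a, Rab20, Rab44 and Rab1b vary most from rat to rat.

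By the order of the 3 group means, 13 members had means that were lowest in Control and highest in MS+EA, among them Rab27b, Rab14, Rab2a, Rab6a and Rab11a, and 12 stood in the reverse order, among them Rab40c, Rab11b, Rab3d, Rab5b and Rab35. Another 20 were highest in MS and 7 were lowest in MS. These orders describe means and were not tested. The 43 members with at least 1000 counts had a median coefficient of variation between rats of a group of 7.55%, and the 9 with fewer had 22.2%.

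The ratio of paralogs within a rat does not depend on how libraries are scaled. For Rab11a to Rab11b, counts stood at a ratio of 0.470, 0.571 and 0.498 in Control, 0.518, 0.633 and 0.717 in MS and 0.635, 0.810 and 0.784 in MS+EA rats. All MS+EA rats were above all Control rats, and the MS rats overlapped both. The mean log2 ratio was −0.97 ± 0.14 in Control, −0.70 ± 0.24 in MS and −0.44 ± 0.19 in MS+EA rats (SD, n = 3), and MS+EA exceeded Control by 0.53 on the log2 scale (exact two-sided permutation p = 0.1, the smallest possible).

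For Rab6a to Rab6b, the ratio was 0.393, 0.396 and 0.358 in Control, 0.408, 0.500 and 0.450 in MS and 0.439, 0.528 and 0.510 in MS+EA rats. Both separated groups lay above the Control rats, with log2 differences of 0.24 for MS and 0.36 for MS+EA. Rab8b to Rab8a ran 0.402, 0.423 and 0.478 in Control, 0.412, 0.424 and 0.539 in MS and 0.503, 0.527 and 0.489 in MS+EA rats, where MS+EA did not overlap Control (log2 difference 0.23). The 8 pairs were a chosen set, and other paralogs among the members, such as Rab2a and Rab2b, were not paired. Of the 8 pairs, 1 did not overlap between MS and Control, 0 between MS+EA and MS and 3 between MS+EA and Control. Among all genes tested, the levels of 17.6%, 17.9% and 25.9% did not overlap in these comparisons. No such share was computed for ratios of other genes. The exact permutation p was 0.1 at the lowest over the 24 tests, and 0.6 after Benjamini-Hochberg adjustment over them. The other 5 pairs (Rab27b/Rab27a, Rab5c/Rab5b, and Rab3b, Rab3c and Rab3d each over Rab3a) overlapped in every comparison. Ratios of counts are not ratios of molecules, since transcript lengths were not used here.

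**Figure D4:**
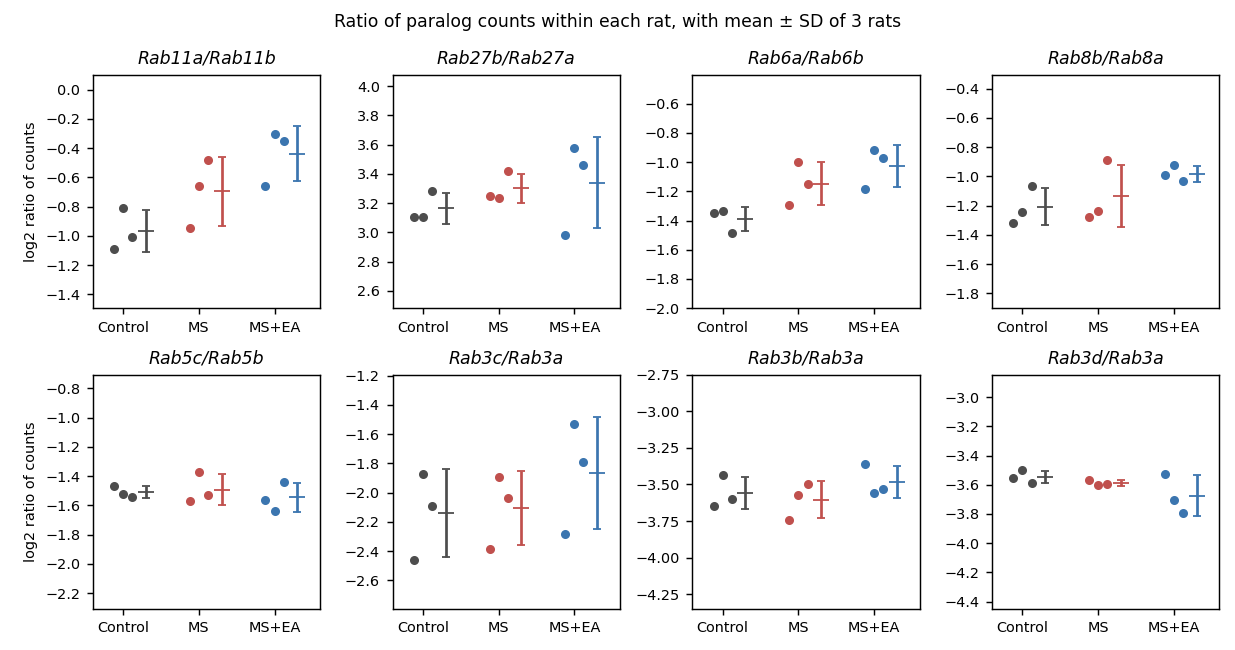
Log2 ratio of counts (y axis, all panels spanning the same range) of 8 Rab paralog pairs by group (x axis); points are rats and bars are the mean ± SD of 3 rats. The Rab11a/Rab11b ratio is above all Control rats in the MS+EA rats, at −0.66 to −0.30 against −1.09 to −0.81.

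A chosen list of regulators and effectors of Rabs, not all such genes, held 175 genes of the table. Whether each product acts with a Rab in this tissue was not examined. Of the 175 listed genes, 165 were tested for differences between groups. Between MS and Control rats 0 of these passed both thresholds, with 13 at an unadjusted p under 0.05 (11 higher, 2 lower; 7.88% against 10.6% of all genes). Between MS+EA and MS rats 0 passed, with 25 at an unadjusted p under 0.05 (7 higher, 18 lower), or 15.2% against 12.4% of all genes. Between MS+EA and Control rats 1 was called (0.606% against 1.37%), 8 passed the adjusted p alone (4.85% against 5.40%) and 45 had an unadjusted p under 0.05 (16 higher, 29 lower), or 27.3% against 22.5% of all genes. Their median log2 fold changes were −0.01, −0.02 and −0.05 in these comparisons.

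Tbc1d8b, a member of the TBC family of Rab GAPs, was the gene called. It was at 8.51, 8.84 and 9.33 CPM in Control, 11.1, 13.8 and 10.8 in MS and 12.1, 16 and 15 in MS+EA rats. Every MS+EA rat was above every Control rat, with a log2 fold change of 0.69 ± 0.15 and an adjusted p of 0.0227. The adjusted p was 0.102, 0.0535 and 0.0559 without Control replicates 1, 2 and 6, and 0.0701 and 0.0644 without MS+EA replicates 10 and 16. The other 7 past the adjusted p, named after their values were seen, were the effectors Appl1 (log2 fold change 0.39), Wdr44 (0.36) and Gcc2 (0.31) and the GEF Rpgr (0.46), which were higher, and the GAP Sgsm2 (−0.39), the prenylated Rab acceptor Rabac1 (−0.43) and the Rab11 effector Rab11fip5 (−0.26), which were lower. When a rat was left out, 0 (without Control replicate 1) to 12 (without MS+EA replicate 3) regulators passed, and over 15 alternatives Rabac1 lost the threshold in 3, Appl1 and Sgsm2 in 4 each, Wdr44 and Rpgr in 6 each, Gcc2 in 8 and Rab11fip5 in 10.

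Of these, Sgsm2 was at 268, 209 and 241 CPM in Control, 234, 246 and 226 in MS and 176, 183 and 188 in MS+EA rats. Rab11fip5, which links Rab11 vesicles to their cargo routes, was at 256, 223 and 252 CPM in Control, 237, 241 and 226 in MS and 204, 202 and 204 in MS+EA rats. In both genes the MS+EA rats lay below all other rats, and they were among the 3 regulators with the smallest p between MS+EA and MS rats, beside Doc2b, a calcium sensor of vesicle release (log2 fold changes −0.37 ± 0.08, −0.21 ± 0.07 and −0.47 ± 0.14, adjusted p = 0.184, 0.272 and 0.245).

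Doc2b was at 32.5, 27.9 and 24.2 CPM in Control, 24.4, 31.5 and 28.9 in MS and 23.5, 19.4 and 18.3 in MS+EA rats, and its MS+EA rats lay below all others. Between MS and Control rats the 3 with the smallest p were Yipf6 and Gcc2, Golgi proteins that were higher in MS rats, and Hps4, part of a Rab32 GEF, which was lower (log2 fold changes 0.37 ± 0.09, 0.25 ± 0.08 and −0.32 ± 0.09, adjusted p = 0.154, 0.273 and 0.212). Yipf6 was at 79.5, 82.2 and 76.9 CPM in Control, 89.2, 109.5 and 111 in MS and 90.9, 106 and 104 in MS+EA rats. Gcc2 was at 103, 104 and 99.7 CPM in Control, 114, 122 and 129 in MS and 113, 138 and 129 in MS+EA rats. For both, all rats of the separated groups were above the Control rats. Hps4 was at 24.4, 26.8 and 28.2 CPM in Control, 22, 20.8 and 20.5 in MS and 24.1, 24.1 and 22.7 in MS+EA rats, with the MS rats lowest.

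By list, the prenylation and membrane cycling genes (15 tested) had a median log2 fold change in MS+EA against Control rats of 0.11, the GEFs (45) −0.06, the GAPs (36) −0.08, the effectors (64) −0.04 and the Rab kinases and phosphatase (5) −0.03. At an unadjusted p under 0.05, where 11.9% of all genes were higher and 10.6% lower, 2 of 45 GEFs were higher and 9 lower, 5 of 36 GAPs were higher and 7 lower, and 6 of 64 effectors were higher and 10 lower.

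**Figure D5:**
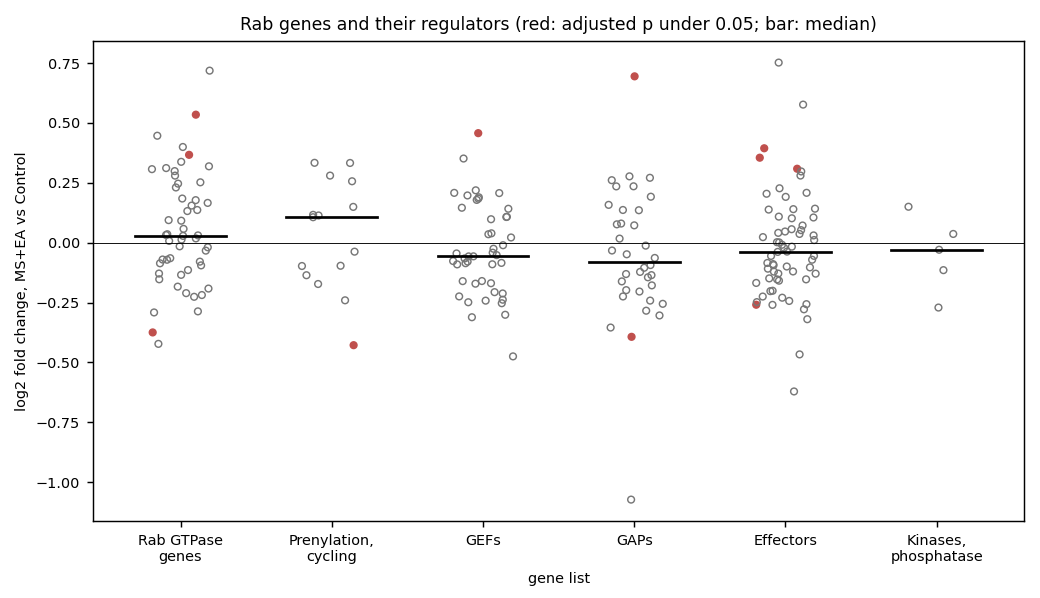
Log2 fold change in MS+EA vs Control (y axis) of the 52 Rab genes and of 5 lists of their regulators and effectors (x axis); circles are genes, filled red where the adjusted p was under 0.05, and bars are list medians. The medians lie between −0.08 and 0.11, and Tbc1d8b, at 0.69, is the highest filled circle.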

How the data were processed

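Whole-number counts of reads per gene were deposited without normalization. The authors aligned the reads with HISAT2 2.0.4 to Rnor_6.0 (names and versions per the labels and the submitters' processing notes). The counting program, its strand setting and its handling of reads with several locations are not given in the sources used here. Counts on genes typed as lncRNA, ncRNA or miscRNA made up 1.62% to 2.13% of a library.

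Counts were analysed with edgeR 4.0.16 in R 4.3.3: TMM normalization, filterByExpr (minimum count 10), a mean per group over all 9 rats, and the quasi-likelihood F test with Benjamini-Hochberg adjustment over 16837 genes. Calls needed a fold change above 1.5 besides an adjusted p under 0.05, and the test was tried on simulated data. EBSeq, the tool of the study, was not run. Standard errors are the log2 fold change over the square root of F. The p-values measure the spread between these rats, whose litters are unknown. Apart from shares, sums and ratios of counts, levels of different genes were not compared, since transcript lengths were not used here. Those shares, sums and ratios are likewise not corrected for length. The members and gene lists were chosen with earlier results of these data known. Values by rat were given for members with an unadjusted p under 0.05 in any comparison (up to 20). The 5 members with the most and the 5 with the fewest counts were included, as were subfamilies compared as paralogs (Rab3c among them). For regulators they were given where called, and for the 3 smallest p in each comparison without a call. Alternatives were DESeq2 1.42.0, its size factors, total counts, other count minimums, the 6 rats compared alone and leaving out each rat. Motifs were searched in RefSeq windows of GRCr8.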

Additional observations from a re-analysis of the deposited data

How the results depend on the processing

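No paired analysis was possible because each rat belongs to 1 group alone and any pair of groups shares at most 1 replicate number (6 in Control and MS, 3 in MS and MS+EA). None of the 32 member log2 fold changes with an unadjusted p under 0.05, and none of 14 of the named regulators, reversed under the alternatives (up to 15) that gave a value. These values were picked by their p in the same counts that the alternatives reuse. A reversal was therefore unlikely from the start, and its absence is no separate support. Members called between MS and Control rats numbered 1 (Rab1b) with the minimum at 1 count over the rats and 1 by DESeq2, and between MS+EA and MS rats 1 (Rab1b) in the former. Between MS+EA and Control rats, 0 members passed both thresholds, 0 to 2 when a rat was left out and 3 with no fold threshold. The 2 were Rab27b and Rab9b, without MS+EA replicate 3. Members past the adjusted p alone in that comparison numbered 2 with DESeq2's size factors, 4 with total counts, 7 at 1 count or more, 4 at 10 counts in every rat, 8 by DESeq2, 2 in the 6 rats alone and 0 to 7 when a rat was left out (0 without Control replicate 1, Control replicate 6, MS+EA replicate 10 or MS+EA replicate 16, and 7 without MS+EA replicate 3). All genes past it numbered 910, and 905, 909, 1451, 968, 1593, 659 and 112 to 951 in these settings. When a rat was left out, the median log2 fold change of the 52 Rab members in that comparison ran from −0.028 (without MS+EA replicate 16) to 0.057. The regulators called there ran from 0 to 1 (0 to 12 at the adjusted p alone). Counts over all genes called were 4, 3 and 230 in the 3 comparisons in the order above, 207, 72 and 469 at 1 count or more, 70, 6 and 296 by DESeq2, and 2 to 22, 1 to 4 and 71 to 304 when a rat was left out. At 10 counts in every rat MS+EA and MS rats differed in 0 genes, and in the 6 rats alone MS and Control differed in 11 and MS+EA and MS in 1. The causes were not tested.

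The Rab share of mRNA counts differed between MS+EA and MS rats by −0.00080 percentage points, by 0.0062 without Rab6b, and by −0.0089 to 0.014 when a rat was left out. The log2 paralog ratios that turned direction when a rat was left out were, for MS against Control, Rab8b/Rab8a (−0.051 to 0.14), Rab5c/Rab5b (−0.040 to 0.058), Rab3c/Rab3a (−0.13 to 0.17) and Rab3b/Rab3a (−0.096 to 0.026), for MS+EA against MS, Rab27b/Rab27a (−0.077 to 0.22) and Rab5c/Rab5b (−0.11 to 0.0042), and for MS+EA against Control, Rab5c/Rab5b (−0.091 to 0.011). The Rab11a/Rab11b difference between MS+EA and Control stayed between 0.46 and 0.64. Each group has 3 rats, which limits every comparison.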
